A study of Mus musculus with 2 samples.

Results

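The PIM kinase genes Pim1, Pim2 and Pim3 were followed across the vessel types of the mouse lung, in mice injected with saline and in mice 6 h after an injection of melanoma cells. They were taken by symbol from the deposited count tables, where each had a single row, and they made 3 of the 32285 genes. All 3 were found in both libraries. The rule uses symbols and no measured value, but Pim3 is one of the response markers of the study, chosen on samples that include these. PIM kinases phosphorylate serine and threonine and, unlike many kinases, need no upstream kinase to switch them on. How much of them a cell holds follows signals such as those of cytokine receptors through JAK-STAT, and the decay of their mRNA and protein. They phosphorylate proteins of survival, cell cycle and metabolism, and Pim1 is best known from blood cells, where it answers cytokines.

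The study asked how lung endothelial cells (ECs) respond to tumor cells that arrive with the blood. C57BL/6 WT mice received PBS (control) or 400000 B16-F10 cells, a mouse skin melanoma line of the same strain, in 100 µl through the tail vein, and lungs were taken 6 h later. Pecam1-positive, Ptprc-negative cells were sorted as ECs, and dye-labelled melanoma cells were added to the B16-F10 library only. The labels give 2 mice per treatment, pooled into 1 library each. The study's own text names 400000 cells only for its last single-cell experiment, for which it gives a larger pool. The number of mice per library is therefore not settled. Each group was therefore a single library without replicate error, no test between the groups was possible, and every interval below is a 95% interval that covers counting error only. The B16-F10 lungs differ from the control lungs by the cells, their injection and everything that follows within 6 h, and these parts cannot be told apart. The mice were neither PIM-deficient nor treated with a PIM inhibitor.

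Libraries held 85794655 (control) and 104978816 (B16-F10) unique molecular identifiers (UMIs, each marking 1 captured mRNA molecule). With 1000 to 5000 genes and under 20% mitochondrial UMIs, and after removal of called doublets, 7830 and 7767 cells were left, with medians of 7500 and 8544 UMIs. The 2 libraries shared 18 cell barcodes. Clusters were named from marker genes as general capillary-like (gCap-like, 4111 control and 3976 B16-F10 cells), aerocyte-like (aCap-like, the thin capillary cells of gas exchange, 1450 and 966), artery-like (485 and 329), vein-like (260 and 260) and lymphatic-like (LEC-like, 57 and 51). A further 679 and 691 ECs had no vessel name, and 763 and 1294 barcodes of mixed identity were kept out of the ECs. The rest included 77 melanoma-like cells, all in the B16-F10 library. The PIM genes, together with the study's own markers of reactive and interferon-rich ECs, were among 100 genes kept out of the clustering, so that they did not shape the classes. The 8 defining markers of each vessel class all had UMIs in the class, but the artery-like class also carried gCap markers at 5744 (control) and 5402 (B16-F10) counts per 1000000 UMIs (CPM) in sum, against 3730 and 2774 CPM for the artery markers.

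The starts of the 3 genes are shown because the family differs in them, beside the differences in level described below. Each window runs from 250 bases before to 50 bases after a RefSeq transcript start on the plus strand of GRCm38.p6. Capitals mark CCAAT boxes (CCAAT or its reverse complement ATTGG) and GC boxes (GGGCGG or its reverse complement CCGCCC), searched on both strands, and no matches overlapped.
Pim3, chr15:88861944-88862243: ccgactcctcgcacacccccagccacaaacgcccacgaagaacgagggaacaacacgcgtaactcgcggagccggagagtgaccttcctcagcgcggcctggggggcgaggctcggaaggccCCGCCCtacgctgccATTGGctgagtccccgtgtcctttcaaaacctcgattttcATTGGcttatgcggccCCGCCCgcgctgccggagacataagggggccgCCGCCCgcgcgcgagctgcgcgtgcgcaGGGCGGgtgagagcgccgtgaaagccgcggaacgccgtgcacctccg
Pim1, chr17:29490535-29490834: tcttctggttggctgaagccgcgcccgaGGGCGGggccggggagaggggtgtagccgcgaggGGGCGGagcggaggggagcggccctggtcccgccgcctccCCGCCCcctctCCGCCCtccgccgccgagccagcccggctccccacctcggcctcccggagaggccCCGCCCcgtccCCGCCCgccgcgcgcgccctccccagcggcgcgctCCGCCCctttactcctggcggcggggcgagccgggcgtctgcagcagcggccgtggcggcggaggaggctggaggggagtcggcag
Pim2, chrX:7878056-7878355: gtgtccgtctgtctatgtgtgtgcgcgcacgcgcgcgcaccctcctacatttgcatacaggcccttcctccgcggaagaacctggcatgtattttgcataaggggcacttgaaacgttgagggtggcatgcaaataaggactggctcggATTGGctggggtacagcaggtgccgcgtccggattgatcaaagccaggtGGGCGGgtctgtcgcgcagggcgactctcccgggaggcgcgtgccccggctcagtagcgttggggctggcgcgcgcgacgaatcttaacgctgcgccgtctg
The Pim3 window held 2 CCAAT boxes and 4 GC boxes. The Pim1 window held 7 GC boxes and no CCAAT box, at a GC content of 81.3%, which is above that of 99.3% of the 32851 RefSeq windows of this length. Pim2 had 1 CCAAT box and 1 GC box. Of all windows, 37.4% held a CCAAT box and 35.7% a GC box. A second RefSeq start of Pim1 lies at chr17:29492835-29493134, where neither motif was found. The STAT letters TTCNNNGAA (in 8.30% of all windows) and TTC and GAA with 4 bases between them (6.95%), the AP-1 letters TGANTCA (7.81%), the cAMP response element TGACGTCA (1.79%), and the NF-kB (4.51%) and CArG (1.63%) motifs were found in none of the 4 PIM windows. These are matches of letters in a short window and describe no binding.

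In GRCm38, Pim3 (ENSMUSG00000035828) spans 15:88862186-88865726 on the plus strand, with 6 exons and 326 codons for amino acids in Pim3-201. Pim1 (ENSMUSG00000024014) spans 17:29490753-29496112 on the plus strand, also with 6 exons, and codes for 313 amino acids in Pim1-201. Pim2 (ENSMUSG00000031155) spans X:7878262-7883432 on the plus strand. The 3′ UTRs of all 3 carry AUUUA pentamers, the core of AU-rich elements by which mRNAs of short life are recognised. Pim3 had 5 in 964 bases and Pim1 had 5 in 1365 bases, and Pim1 also had 3 matches of the nonamer that extends this core on both sides. Pim2 had 2 in 915 bases. Per kb, Pim3 had more pentamers than 92.6% of the 20468 genes with a 3′ UTR, Pim1 more than 84.8% and Pim2 more than 68.0%. The antisense gene Gm26885 overlaps Pim1. It was listed with 76 control and 174 B16-F10 UMIs in gCap-like ECs, beside 1966 and 3843 for Pim1, and whether any Pim1 UMIs belong to it was not tested.

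Pim3, the member the study followed, was higher in the B16-F10 library in all 4 blood vessel classes and not in the LEC-like class. In gCap-like ECs, it was at 58.2 CPM (55.5 to 61.0) in control and 304 CPM (299 to 310) in B16-F10, from 1765 and 10477 UMIs. The ratio was 5.23-fold, or 2.39 on the log2 scale (2.31 to 2.46). Pim3 ranked 66th by ratio of the 12976 genes measured in this class (at least 50 UMIs over both libraries), and the median gene stood at a log2 ratio of -0.04. Pim3 and Pim1 were higher by at least 1.5-fold here, as were 7.94% of all genes. The Pim1 call ended at a fixed cluster make-up, where its ratio was 1.39-fold (described with the clusters below). No PIM gene was lower by that fold, as were 9.58% of all genes.

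In aCap-like ECs, Pim3 was at 69.7 CPM (65.3 to 74.4) in control and 222 CPM (213 to 231) in B16-F10, a log2 ratio of 1.67 (1.56 to 1.78). The class held cluster 1 (944 control and 901 B16-F10 cells; log2 ratio 1.49) and cluster 10 (506 and 65 cells; 2.15). In vein-like ECs, it was at 190 CPM (174 to 207) and 423 CPM (400 to 448), a log2 ratio of 1.16 (1.01 to 1.31). Veins thus had the highest Pim3 level of the named classes in both libraries and the lowest log2 ratio of the 4 blood vessel classes. In the artery-like class, Pim3 was at 48.6 CPM (42.0 to 56.1) and 184 CPM (169 to 200), a log2 ratio of 1.92 (1.68 to 2.16). This artery value depended on how the class was drawn. When cells were given a class one by one from their own markers, leaving 170 control and 100 B16-F10 cells, the log2 ratio was 0.73 (0.38 to 1.07). With cells of at least 500 genes, the class held 74 and 40 cells and the log2 ratio was 0.54 (0.04 to 1.03). All artery values were above 0, but their order against the other classes is not settled.

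In LEC-like ECs, 46 control and 40 B16-F10 UMIs of Pim3 gave 98.2 CPM (71.9 to 131) and 83.1 CPM (59.4 to 113). At -0.24 (-0.89 to 0.40), its log2 ratio had an interval that lies below the value of every blood vessel class and includes no change. In control, the order of Pim3 from high to low was vein, LEC, aCap, gCap and artery. The intervals of LEC and aCap overlapped, those of aCap and gCap did not, and those of gCap and artery overlapped. In B16-F10, it was vein, gCap, aCap, artery and LEC, and no intervals of neighbours overlapped.

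**Figure D1:**
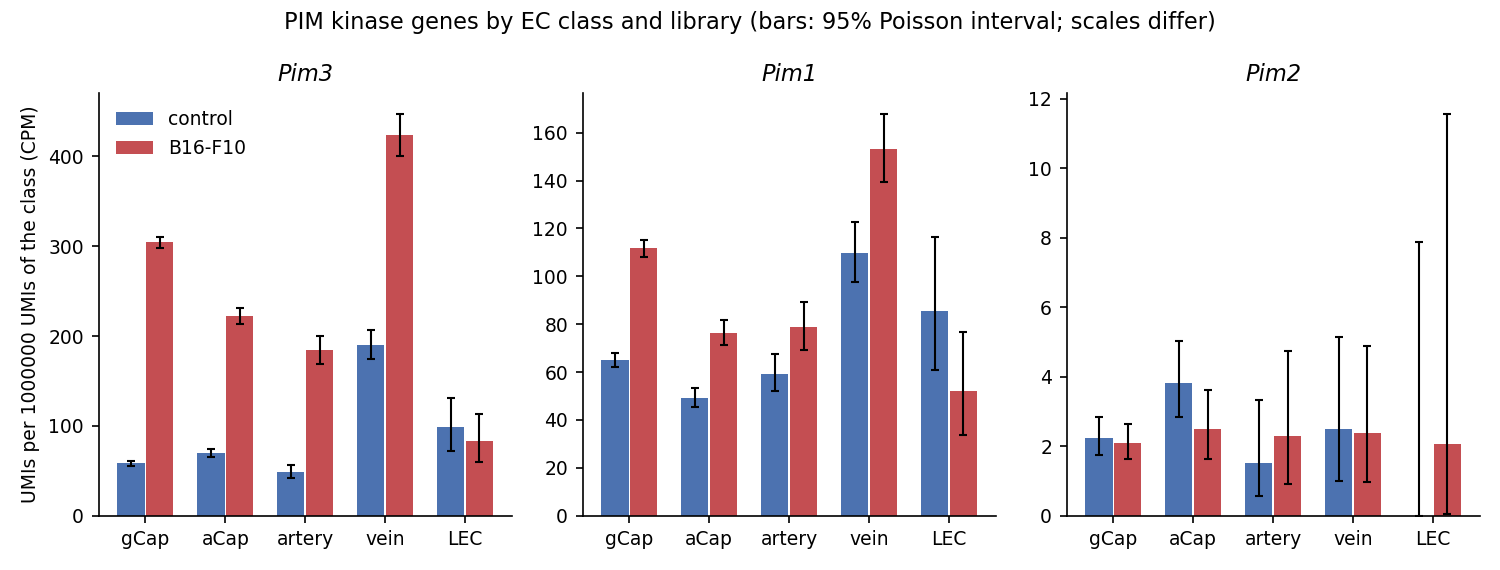
Levels of Pim3, Pim1 and Pim2 in UMIs per 1000000 UMIs (y axis, a separate scale for each gene) in the 5 vessel classes (x axis), with 1 bar per library and 95% Poisson intervals. Pim3 reached 304 CPM in B16-F10 and 58.2 CPM in control gCap-like ECs, and Pim2 was below 4 CPM in each class.

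Pim1, the founding member of the family, was higher in the B16-F10 library in gCap-like, aCap-like and vein-like ECs, by less than Pim3. In gCap-like ECs, it was at 64.8 CPM (62.0 to 67.8) in control and 112 CPM (108 to 115) in B16-F10, a ratio of 1.72-fold and a log2 ratio of 0.78 (0.71 to 0.86). The aCap-like class gave 49.3 CPM (45.6 to 53.2) and 76.3 CPM (71.2 to 81.7), a log2 ratio of 0.63 (0.48 to 0.78). Within its clusters, the log2 ratio of Pim1 was 0.51 (0.35 to 0.67) in cluster 1 and 0.14 (-0.98 to 1.09) in cluster 10, which had the lower Pim1 level and made up 506 of 1450 control but 65 of 966 B16-F10 cells. Weighted by control cells, the ratio of the class was 1.35-fold. In vein-like ECs, Pim1 was at 110 CPM (97.7 to 123) and 153 CPM (139 to 168), a log2 ratio of 0.48 (0.27 to 0.70). As for Pim3, the vein-like class was highest in both libraries.

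In the artery-like class, Pim1 was at 59.3 CPM (52.0 to 67.5) and 78.7 CPM (69.1 to 89.4), a log2 ratio of 0.41 (0.14 to 0.67). The direction turned under 3 alternatives, to -0.65 with cells of at least 500 genes, -0.55 with cells classed one by one and -0.11 with all cells thinned to 2000 UMIs, so that no direction is given for Pim1 in arteries. LEC-like ECs had 40 control and 25 B16-F10 UMIs of Pim1. Levels there were 85.4 CPM (61.0 to 116) in control and 51.9 CPM (33.6 to 76.7) in B16-F10, and the log2 ratio of -0.72 (-1.50 to 0.04) had an interval that includes no change. In control, Pim1 followed the order vein, LEC, gCap, artery and aCap, and the intervals of each pair of neighbours overlapped. In B16-F10, it was vein, gCap, artery, aCap and LEC, where vein, gCap and artery stood apart from each other, and the intervals of artery and aCap, and of aCap and LEC, overlapped.

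Pim2, the member best known from lymphoid cells, was close to the limit of detection in ECs. All ECs together had 143 control and 132 B16-F10 UMIs of Pim2, which is 2.57 CPM (2.17 to 3.03) and 2.26 CPM (1.89 to 2.68). In gCap-like ECs, the 68 and 72 UMIs gave a log2 ratio of -0.10 (-0.60 to 0.40), and in aCap-like ECs, the 50 and 27 UMIs gave -0.62 (-1.35 to 0.09). Both intervals include no change. The artery-like class had 6 and 7 UMIs, the vein-like class 7 and 7, and the LEC-like class 0 and 1. The 0 allows a level of up to 6.41 CPM (3 counts). In gCap-like ECs, a Pim2 difference within the interval was not detectable at this depth, and that of Pim3 (2.39) lies far outside it.

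Counted by class, 2 of 3 PIM genes were higher by at least 1.5-fold in aCap-like ECs (6.55% of all 11107 genes measured there were), and Pim2 was lower by that fold with an interval that includes no change (8.18% of all genes were lower). At the control make-up of clusters, Pim1 no longer passed that fold, at 1.35-fold, and Pim2 was at 1.52-fold, from 4 UMIs in the B16-F10 cells of cluster 10. In artery-like ECs, Pim3 was higher by that fold (7.57% of 9575 genes) and none was lower (7.64%), and in vein-like ECs, Pim3 was higher (5.29% of 9123 genes) and none was lower (5.2%). In LEC-like ECs, none was higher (8.7% of 3932 genes) and Pim1 was lower (8.01%). Pim2 did not reach the 50 UMIs needed in the last 3 classes. By ratio, Pim3 ranked 86th among aCap-like genes, 16th among artery-like, 101st among vein-like and 2827th among LEC-like, and Pim1 ranked 632nd in gCap-like and 692nd in vein-like ECs.

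**Figure D2:**
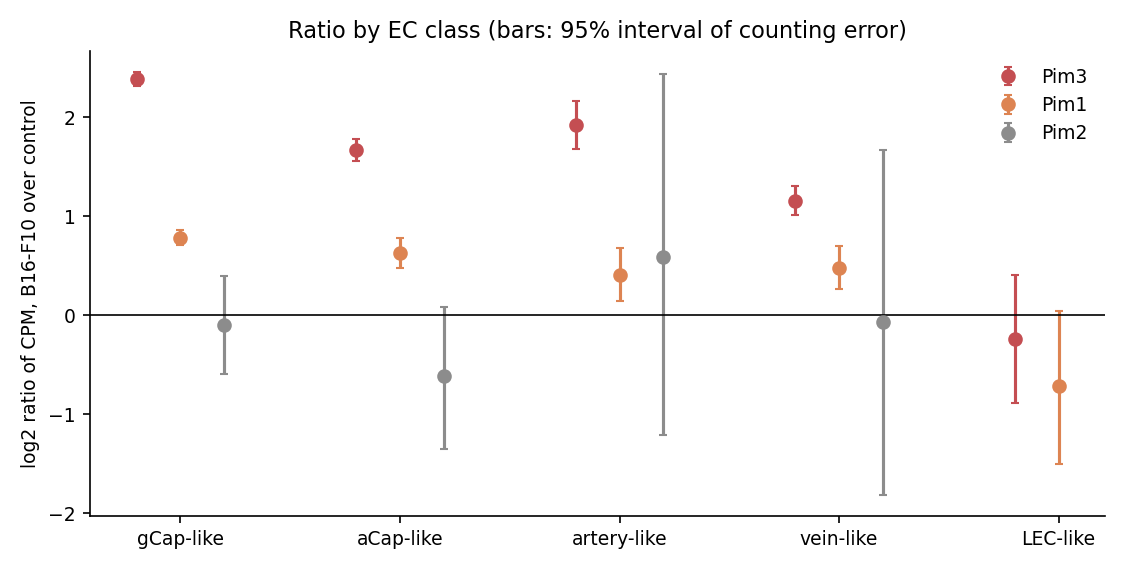
Log2 ratio of CPM, B16-F10 over control (y axis), of the 3 PIM genes in the 5 vessel classes (x axis), with 95% intervals of counting error and a line at no change. Pim3 lies highest in each blood vessel class, from 1.16 in vein-like to 2.39 in gCap-like ECs, and both LEC-like intervals include 0.

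The make-up of the family moved with these changes. In gCap-like ECs, Pim1 gave 51.8% of PIM UMIs in control (50.1 to 53.4), Pim3 46.5% and Pim2 1.79%. In B16-F10, Pim3 gave 72.8% (72.1 to 73.5), Pim1 26.7% and Pim2 0.50%, while the summed level went from 125 to 418 CPM. In B16-F10, Pim3 also gave 73.8% of the PIM UMIs of the aCap-like class, 69.4% of the artery-like and 73.1% of the vein-like, where its control shares were 56.8%, 44.4% and 62.9%. In LEC-like ECs, it gave 53.5% (42.4 to 64.3) and 60.6% (47.8 to 72.4), which overlap. Per kb of transcript, the level of Pim3 was 0.998 times that of Pim1 in control gCap-like ECs and 3.03 times in B16-F10, and in vein-like ECs it was 1.93 and 3.07 times. Counting from the 3′ end is not proportional to length, so that such ratios between genes are approximate.

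Shares of positive cells were compared after each cell was thinned to 2000 UMIs, since B16-F10 cells were deeper. In gCap-like ECs, 9.95% of cells (9.05 to 10.9) had a Pim3 UMI in control and 34.6% (33.1 to 36.1) in B16-F10, a difference of 24.6 percentage points (22.9 to 26.3). The vein-like class had 25.8% (20.6 to 31.5) and 48.1% (41.9 to 54.3). Its control share lay between the B16-F10 shares of the artery-like (22.0%, 17.7 to 26.9) and aCap-like ECs (29.1%, 26.3 to 32.1), with overlapping intervals. In aCap-like ECs, the control share was 12.2%, and in artery-like ECs, it was 7.93% (5.67 to 10.7). LEC-like ECs had 14.04% (6.26 to 25.8) and 17.6% (8.40 to 30.9). Without thinning, 28.4% and 61.7% of gCap-like ECs and 72.7% and 85.8% of vein-like ECs were positive.

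For Pim1, the thinned shares of gCap-like ECs were 11.6% (10.6 to 12.6) in control and 19.0% (17.8 to 20.3) in B16-F10, a difference of 7.45 percentage points (5.88 to 9.02). In vein-like ECs they were 15.8% and 24.2%, and in aCap-like ECs 7.75% and 13.2%. Artery-like ECs had 10.9% and 11.9%, a difference of 1.07 points with an interval from -3.30 to 5.75. Pim2 was found in 0.44% of control and 0.25% of B16-F10 gCap-like ECs.

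Free RNA gives UMIs in cells that do not express a gene. Melanoma-like cells of the B16-F10 library, at a median of 8200 UMIs, had a Pim3 UMI in 1.32% of thinned cells (0.03 to 7.11) and 9 UMIs in all, or 10.97 CPM, against 304 CPM in gCap-like ECs beside them at a median of 8364. Macrophage/monocyte-like cells had 28.6 CPM (16 UMIs) and neutrophil-like cells 14.7 CPM of Pim3 there. The neutrophil-like value rests on 2 UMIs in 19 cells (1.78 to 53.2 CPM). Barcodes with 1 to 100 UMIs held Pim3 at 81.8 CPM in control and 264 CPM in B16-F10, and from these the free RNA of Pim3 in gCap-like ECs was estimated at 1.29 and 5.75 CPM. Pim1 went the other way between cell types, with 892 CPM in neutrophil-like, 464 CPM in macrophage/monocyte-like and 289 CPM in lymphoid-like cells of the B16-F10 library, all above the ECs. Pim2 was at 51.5 CPM in lymphoid-like cells and had 0 UMIs in 77 melanoma-like cells. Among the cell classes of the B16-F10 library, Pim3 was highest in vein-like ECs, Pim1 in neutrophil-like cells and Pim2 in lymphoid-like cells. The last 2 classes held only 19 and 29 cells there. The Pim2 value of lymphoid-like cells (27.4 to 88.1 CPM) rests on 13 UMIs. It overlaps that of 38 non-endothelial cells without a class name (34.7 CPM, 15.9 to 65.9).

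Cells with several Pim3 UMIs were also more frequent in the B16-F10 library. Among thinned gCap-like ECs, 2.86% of B16-F10 cells (113 cells) held 4 or more Pim3 UMIs, against 0.074% (3 cells) in control. Positive cells held a mean of 1.16 UMIs in control and 1.73 in B16-F10. Over all cells, the variance was 1.25 times the mean in control and 1.91 times in B16-F10, where equal cells would give 1 by counting alone. The mean was 0.115 and 0.599 UMIs per cell. The UMIs of positive cells and the ratio of variance to mean can both rise with the mean alone. Neither therefore shows more uneven cells in B16-F10. In vein-like ECs, positive cells held 1.33 and 1.80 UMIs, and cells with 4 or more made 0% of 260 in control (a count of 0 allows up to 1.15%) and 13 of 260 cells in B16-F10. Pim1 stayed closer to single UMIs, with 1.11 and 1.22 UMIs in positive gCap-like ECs and a variance of 1.08 and 1.21 times the mean. Its means were 0.128 and 0.232 UMIs per cell.

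**Figure D3:**
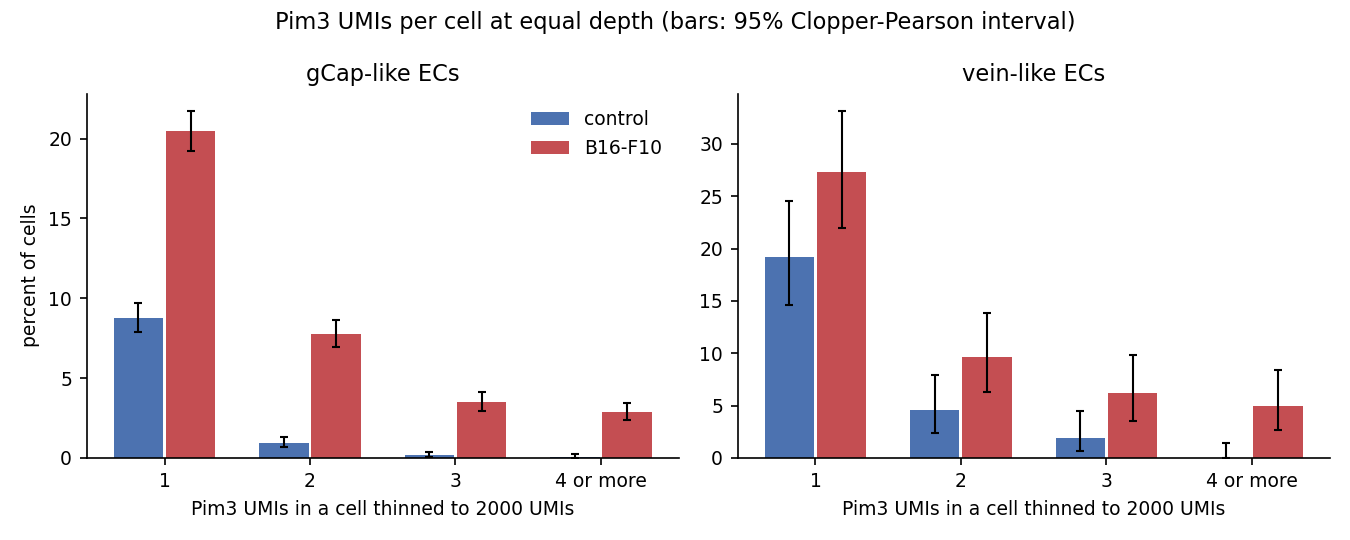
Percent of cells (y axis) with 1, 2, 3 and 4 or more Pim3 UMIs (x axis) after thinning to 2000 UMIs, in gCap-like (left) and vein-like (right) ECs of both libraries, with 95% Clopper-Pearson intervals. In gCap-like ECs, cells with 4 or more made 2.86% in B16-F10 and 0.074% in control.

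The gCap-like class held 6 clusters, and they did not take part alike. Cluster 4, led by Lalba, Adamts9 and Tmem252, had 77 control and 1037 B16-F10 cells. Clusters 5 (805 and 267) and 7 (890 and 151) held mostly control cells, and clusters 0 (1015 and 1002) and 2 (894 and 788) were more even. Pim3 was highest in cluster 4 in both libraries, at 228 CPM (192 to 270) in control and 663 CPM (647 to 679) in B16-F10, a log2 ratio of 1.54 (1.29 to 1.79). Cluster 4 gave 6431 of the 10477 Pim3 UMIs of its class in B16-F10. In the other 5 clusters, Pim3 was also higher in B16-F10, with log2 ratios from 1.26 in cluster 0 (56.7 and 135 CPM) to 2.13 in cluster 2 (29.1 and 127 CPM). With each cluster weighted by its control cells, the class went from 56.5 to 173 CPM, a log2 ratio of 1.62, and without cluster 4 the log2 ratio was 1.58. The difference in the share of Pim3-positive cells was 13.6 points without it.

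For Pim1, the same clusters gave log2 ratios from 0.31 (cluster 0) to 0.75 (cluster 2), and 0.32 (0.02 to 0.64) in cluster 4, where Pim1 was at 151 and 189 CPM. Weighted by control cells, the log2 ratio of Pim1 in gCap-like ECs was 0.47, and it was 0.36 (0.27 to 0.46) without cluster 4. Both genes were thus higher within each gCap-like cluster, and part of the difference of the whole class went with the share of cells in cluster 4.

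Among ECs without a vessel name, cluster 8, which had markers of both gCap and vein, had Pim3 at 121 and 331 CPM, a log2 ratio of 1.45 (1.30 to 1.61), and Pim1 at 85.2 and 138 CPM. Cluster 16, led by Fabp4 and Rbp7, had the highest control level of Pim3, 295 CPM (263 to 332), and 423 CPM in 35 B16-F10 cells, a log2 ratio of 0.52 (0.17 to 0.85). Cluster 14, with Csf2 and Sox9 among its leading genes, had 87.5 CPM of Pim3 in 299 B16-F10 cells, below every gCap-like cluster of that library, and 3 UMIs in 7 control cells.

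**Figure D4:**
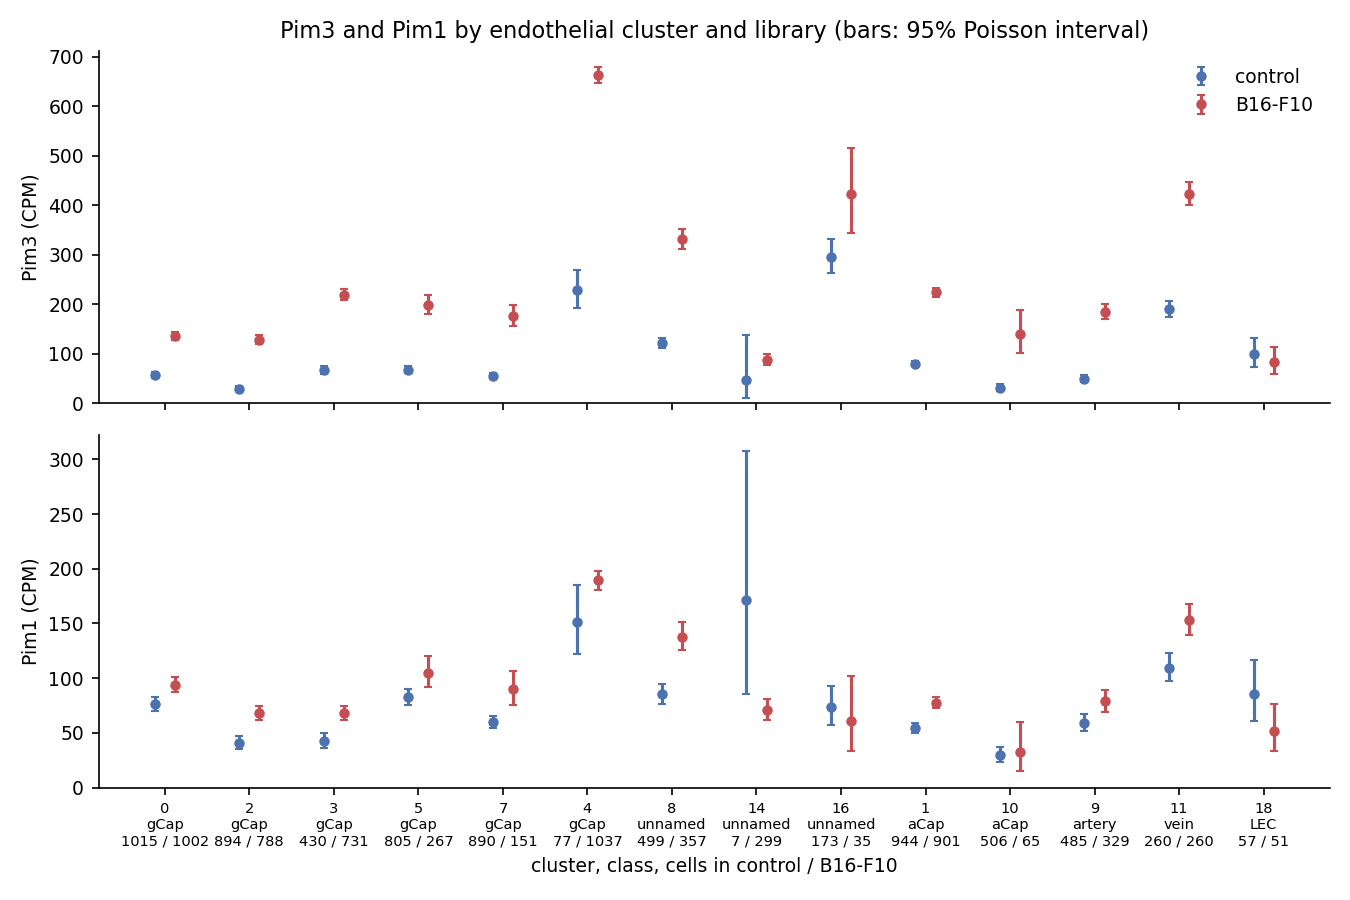
Levels of Pim3 (top) and Pim1 (bottom) in CPM (y axes) in each endothelial cluster (x axis, with its class and cell numbers in control / B16-F10) of both libraries, with 95% Poisson intervals. Pim3 was highest in cluster 4 of the B16-F10 library, at 663 CPM.

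Markers of other cells were measured beside these values. In gCap-like ECs, the 8 melanoma markers summed to 27.7 CPM in control and 55.5 CPM in B16-F10, the 7 macrophage/monocyte markers to 18.7 and 35.9 CPM, the 7 neutrophil markers to 2.64 and 8.25 CPM, and the 6 platelet markers to 22.4 and 25.8 CPM. The 8 mural markers summed to 21.8 and 35.9 CPM, the 6 fibroblast markers to 6.00 and 9.91 CPM, the 8 epithelial markers to 208 and 167 CPM, the 4 red cell markers to 1317 and 1525 CPM, and the 7 lymphoid markers to 1.29 and 1.66 CPM. By at least 1.5-fold, 4 of 8 melanoma, 4 of 8 mural, 3 of 7 macrophage/monocyte, 2 of 7 neutrophil, 3 of 6 fibroblast and 3 of 8 epithelial markers were higher. No platelet, red cell or lymphoid marker was. Only measured markers could count as higher, while the list sizes include all markers. The lymphoid markers, at 1.29 and 1.66 CPM in sum, were mostly too low to be counted, so that their absence here says little. Of all genes measured in the class, 7.94% were higher. Each marker had a UMI in the class except 1 of the fibroblast list. In aCap-like, artery-like and vein-like ECs, macrophage/monocyte markers went from 14.9 to 27.9, from 11.2 to 32.8 and from 12.9 to 31.9 CPM, and melanoma markers from 46.2 to 67.2, from 26.7 to 51.2 and from 16.4 to 36.7 CPM. In LEC-like ECs, they went from 27.8 to 22.9 and from 21.4 to 72.7 CPM. How much of these cells' RNA is in the PIM values was not tested directly. Ratios were also taken with free RNA subtracted, and in cells without a UMI of 36 markers of other cells. That filter left 2536 of 4111 control and 1455 of 3976 B16-F10 gCap-like ECs. Over all alternatives run, with these included, the gCap-like log2 ratio lay from 1.58 to 2.43 for Pim3 and from 0.36 to 0.94 for Pim1. The melanoma-like cells, which had melanoma markers by definition, had Pim3 at 10.97 CPM and Pim1 at 6.09 CPM, below both genes in the ECs of either library. Macrophage/monocyte-like and neutrophil-like cells of the B16-F10 library had Pim1 at 464 and 892 CPM, above the 112 CPM of gCap-like ECs there. Their Pim3, at 28.6 and 14.7 CPM from 16 and 2 UMIs, was below the 304 CPM of these ECs. The endothelial markers were at 11826 and 11075 CPM.

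In the gCap-like class of B16-F10, Pim3 and Pim1 were found in the same cells more often than the product of their shares, and less so once cells were compared within clusters. Among B16-F10 gCap-like ECs at equal depth, 348 of 3947 cells (8.82%) had both, against 6.57% expected, a ratio of 1.34 (1.21 to 1.48). A Pim3 UMI was found in 46.4% of Pim1-positive and in 31.8% of Pim1-negative cells. In control, 59 of 4050 cells (1.46%) had both, a ratio of 1.27 (0.97 to 1.63). With the expectation taken within each cluster, the B16-F10 ratio was 1.13 (1.02 to 1.25), and in cluster 4 alone it was 1.10 (0.98 to 1.23), where 66.4% of cells had Pim3, 30.1% had Pim1 and 228 cells had both. In cells with no UMI of other cell types' markers, the B16-F10 ratio was 1.07 (0.87 to 1.30). This filter left 1455 of the 3976 B16-F10 cells of the class before thinning, and why the ratio was lower there was not tested. In the other classes of the B16-F10 library, both genes met in 45 aCap-like cells (1.22, 0.89 to 1.61), 35 vein-like cells (1.16, 0.82 to 1.56) and 13 artery-like cells (1.51, 0.81 to 2.55), with intervals that include 1.

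The study's other markers of reactive capillaries were compared with the PIM genes in the same way. Like Pim3, they were chosen on samples that include these, so that ratios above 1 with Pim3 are not independent evidence. Socs3, a feedback inhibitor of JAK-STAT signalling, was at 58.2 and 492 CPM in gCap-like ECs, Bcl3, an IκB-family coactivator, at 18.4 and 122 CPM, and Inhbb, the activin βB subunit, at 5.14 and 103 CPM. Pim3 was found with Inhbb at 1.47 times the expected share (1.28 to 1.67) in B16-F10 gCap-like ECs, with Bcl3 1.42 times (1.29 to 1.57) and with Socs3 1.35 times (1.27 to 1.43). Within clusters, the Socs3 ratio was 1.16 (1.10 to 1.23) and that of Bcl3 1.11, while that of Inhbb was 0.888 (0.775 to 1.01). Pim1 gave 1.42 with Inhbb, 1.29 with Bcl3 and 1.18 with Socs3, and 0.990, 1.09 and 1.07 within clusters. The levels of these partners differed by class. In vein-like ECs, where Pim3 was highest, Inhbb had 1 control and 19 B16-F10 UMIs, and Socs3 was at 181 and 522 CPM.

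**Figure D5:**
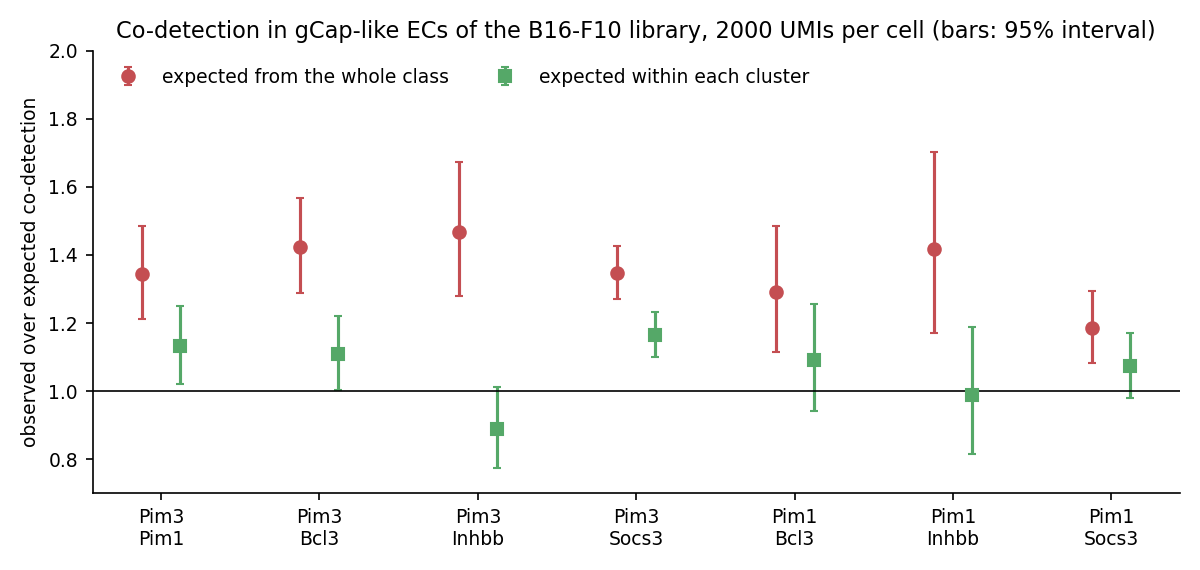
Observed over expected share of cells with both genes (y axis) for pairs of Pim3 or Pim1 with the other genes named (x axis) in B16-F10 gCap-like ECs at 2000 UMIs, with the expectation from the whole class (circles) or within each cluster (squares) and 95% intervals. Pim3 with Pim1 was at 1.34 and 1.13, and Pim3 with Inhbb at 1.47 and 0.888.

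Among the 3702 genes found in 10 to 90% of these cells, the 5 with the highest co-detection with Pim3 were March3, a ubiquitin ligase (1.64), Gadd45g, a growth arrest gene (1.59), Tmem252 (1.53), Csrnp1 (1.48) and Inhbb (1.47). The median gene was at 1.00, and genes from the 5th to the 95th percentile lay between 0.847 and 1.15. Bcl3 ranked 7th, Socs3 20th and Pim1 22nd. For Pim1, they were Igtp (1.63), an immunity-related GTPase, Atf3 (1.44), a stress-induced transcription factor, Adam9 (1.43), a membrane protease, Inhbb (1.42) and Irgm1 (1.41), another immunity-related GTPase, and Pim3 ranked 9th. March3, Gadd45g, Tmem252, Inhbb, Igtp and Irgm1 were, like the PIM genes, among the 100 genes kept out of the clustering. The ranks of genes that the study chose as markers, among them Tmem252, Inhbb, Bcl3 and Socs3, are not independent evidence.

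Across the 10 sums of 5 classes in 2 libraries, the genes whose log2 levels were most like those of Pim3, of 10237 genes, were Arf4 (Pearson's r of 0.98), Psmb2 (0.97), Ndufb1-ps (0.96), Rpl36al (0.96) and Junb (0.94). Socs3 ranked 36th (0.89), Pim1 55th (0.86) and Bcl3 71st (0.84). For Pim1, they were Cox8a (0.96), Rpl27 (0.96), Ldha (0.94), Brms1 (0.92) and Cops9 (0.92), with Pim3 57th. The 10 points come from 2 libraries and share their depth and composition, so that these values are descriptions without a test.

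The genes around the PIM kinases were described in gCap-like ECs, where 7.94% of all genes were higher and 9.58% lower by at least 1.5-fold. Of 24 JAK-STAT pathway genes, 21 were measured, 7 were higher and 0 were lower, with a median log2 ratio of 0.25 against -0.04 for all genes. The 4 highest were Il4ra, a receptor of interleukin 4 (1.49), Osmr, the oncostatin M receptor (1.15), and the kinases Jak3 (0.88) and Jak2 (0.70). Without cluster 4, 3 of the list were higher. The share of all genes past 1.5-fold was not taken without cluster 4, so that this fall has no baseline. Of 16 genes of STAT feedback and shared targets, 10 were higher and 0 lower, with a median of 0.77. They included Myc (4.84, from 17 to 554 UMIs), Socs3 (3.08), Bcl3 (2.73) and Junb (2.40). Osmr from the first list, and Myc, Socs3, Bcl3 and Cebpd, are, like Pim3, among the response markers that the study chose. The study also reported Jak2 as upregulated in its reactive capillaries. Both rest on samples that include these, so that the direction of these genes is not independent evidence.

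In gCap-like ECs, 5 genes of PIM substrates were lower and 1 was higher, where all genes were also more often lower (9.58%) than higher (7.94%). Of 25 genes of PIM substrates, 22 were measured, with a median log2 ratio of -0.17. The cell cycle inhibitor Cdkn1a was higher (0.92), and the chemokine receptor Cxcr4 (-2.32), the insulin receptor substrate Irs1 (-1.75), the cell cycle inhibitor Cdkn1b (-0.97) and the kinase Map3k5 (-0.78) were the lowest. Of 6 genes of PIM protein stability, Hsp90aa1, a chaperone, was higher (0.61), and of 6 genes that bind AU-rich elements, Zfp36, which speeds the decay of such mRNAs, was higher, at 50.98 CPM in control and 197 CPM in B16-F10. None of 10 adherens junction genes passed 1.5-fold. Cdh5, the endothelial cadherin, was at 1785 CPM in control and 1777 CPM in B16-F10 (-0.01), and its partners the catenins Ctnna1, Ctnnb1 and Ctnnd1 had log2 ratios of -0.22, 0.31 and -0.31.

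In the other classes, the JAK-STAT list had 5 of 20 measured genes higher in aerocytes (6.55% of all genes were), 3 of 21 in arteries (7.57%), 5 of 21 in veins (5.29%) and 2 of 14 in lymphatics (8.7%), where 1 was lower and the median log2 ratio was -0.14. The STAT feedback list had 8 of 15, 6 of 14, 5 of 14 and 2 of 6 genes higher in the same order. PIM substrates had 2 of 20 higher and 2 lower in aerocytes, 1 and 6 of 21 in arteries, 0 and 2 of 19 in veins, and 0 and 4 of 13 in lymphatics. Of all genes, 8.18%, 7.64%, 5.2% and 8.01% were lower in these classes, in the same order.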

How the data were processed

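Each library was 1 pool of sorted lung cells on the 10x 3′ platform. The authors deposited raw UMI counts per gene and barcode for all barcodes, unfiltered and not normalized. The submitters' notes name Cell Ranger 7.2.0, Seurat 4.4.0 and mm10. The study's methods name an earlier Cell Ranger version, and whether intron reads were counted is not given in the sources used here, which bears on levels per kb. Of 32285 gene IDs, 32158 were found in GENCODE M21 (GRCm38, the build of mm10).

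The study's limits were applied to cells (1000 to 5000 genes, less than 20% mitochondrial UMIs). Scrublet scores in scanpy 1.11.5 were called at 0.8% per 1000 cells in place of the study's DoubletFinder, which removed 564 and 554 cells. On 2955 variable genes, 30 principal components and 20 neighbours, leidenalg 0.10.2 at resolution 0.8 gave 25 clusters. Markers had to be 1.5-fold over the other clusters and in 10% of a cluster's cells. A class needed 3 markers and 50% of its list, ECs also 6 of 8 endothelial markers in 50% of cells. A difference from the study may come from these rebuilt names. For each class and library, UMIs were added up and expressed per 1000000 (CPM). Log2 ratios have exact conditional binomial intervals, levels Poisson, shares Clopper-Pearson and differences of shares Newcombe intervals (scipy 1.17.1). Shares, UMIs per cell and co-detection were taken after thinning each cell to 2000 UMIs (in gCap-like ECs, 61 control and 29 B16-F10 cells were too shallow). Co-detection was compared with the product of both shares. Likeness was Pearson's r of log2(CPM + 1) among genes with at least 500 UMIs. The free RNA of ECs was estimated from 15 genes of other cells and from barcodes with 1 to 100 UMIs.

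The 3 PIM genes, Bcl3, Inhbb and Socs3 were named throughout. So were the 5 genes most like Pim1 and Pim3, the 5 with the highest co-detection with each, in each list up to 4 members past 1.5-fold in each direction, and 4 adherens junction genes. Members, lists and alternatives were chosen with earlier results of these data known. Ratios and intervals were run on simulated Poisson counts, which hold only the counting error that the intervals assume. This run cannot show how well the intervals cover real counts, which vary more between cells.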

Additional observations from a re-analysis of the deposited data

Results flagged for a closer look

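Near-empty barcodes, which no comparison above uses as cells, held the PIM genes at levels that moved with the library. In barcodes with 1 to 100 UMIs, Pim3 was at 264 CPM in B16-F10 against 81.8 CPM in control, a log2 ratio of 1.69 (1.53 to 1.85). Pim1 was at 95.6 CPM against 57.0 CPM, a log2 ratio of 0.75 (0.52 to 0.97). These levels are near those of the ECs of the same library, and melanoma-like cells of the same library had Pim3 at 10.97 CPM.

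LEC-like ECs had ratios on the other side of no change from gCap-like ECs. The log2 ratio of Pim3 was -0.24 (-0.89 to 0.40) in LEC-like against 2.39 in gCap-like ECs, and that of Pim1 was -0.72 (-1.50 to 0.04) against 0.78. With 1 library per group, this contrast of classes was not tested. The LEC-like values rest on 57 and 51 cells and their own intervals include no change.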

How the results depend on the processing

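For 17 results, 197 values were computed under 16 alternatives. Of these, 161 stayed inside the counting interval of the reported value, 33 left it and 3 called values turned. All 3 turned values were of Pim1 in artery-like ECs, which went from 0.41 to -0.65 with at least 500 genes per cell, -0.55 with the class given cell by cell and -0.11 with cells thinned to 2000 UMIs. A further 12 values whose interval includes no change crossed it, 10 of Pim2 and 2 of Pim3 in LEC-like ECs. Pim3 stayed above 0 in the 4 blood vessel classes under each alternative run.

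The log2 ratio of Pim3 in gCap-like ECs (2.39) was 2.26 with doublets kept, 2.21 with at least 500 genes, 2.23 with no upper limit of genes, 2.27 with under 10% mitochondrial UMIs, 2.26 at resolution 1.6 and 2.05 with cells classed one by one. In artery-like ECs (1.92) it was 0.54 with at least 500 genes, 2.20 with no upper limit, 1.68 with the response genes kept in the clustering, 1.66 at resolution 1.6 and 0.73 with cells classed one by one. In vein-like ECs (1.16) it was 1.31 with doublets kept and 1.34 when thinned. Pim1 in gCap-like ECs (0.78) was 0.94 with the response genes kept and 0.70 with cells classed one by one, and 0.81 in thinned aCap-like ECs (0.63). Pim2 in thinned gCap-like ECs was -0.89 (-2.16 to 0.29). The Pim3 share difference in gCap-like ECs (24.6 points) was 29.0 with the response genes kept, 21.8 with cells classed one by one and 29.3 at 4000 UMIs, where that of Pim1 (7.45) was 10.1. Co-detection of Pim1 and Pim3 (1.34) was 1.07 in cells without other cells' markers, which were 1455 of 3976 B16-F10 gCap-like cells before thinning.

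Leaving out low-count clusters removed a mixed cluster outside these classes, so it tested nothing and is not counted. Alternatives chosen after seeing the data concern the capillary clusters. Without cluster 4, Pim3 was 1.58, Pim1 0.36, their share differences 13.6 and 3.77 points, co-detection 1.18, and 3 rather than 7 JAK-STAT genes were higher. The share of all genes past 1.5-fold was not taken for this setting, so that the last count has no baseline. With clusters weighted by control cells, Pim3 was 1.62 and Pim1 0.47 in gCap-like ECs, and Pim1 0.43 and Pim2 0.60 in aCap-like ECs. With cluster 8, Pim3 was 2.23, and within clusters co-detection was 1.13. Where no cause is named, the cause was not tested.

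The Pim2 ratio in LEC-like ECs could not be computed, since control had 0 UMIs. Leaving out a replicate was not possible with 1 library per group. No paired analysis was possible because only a single library stands for either treatment. The count of Pim2 limits its values in each EC class, and the number of cells limits all 3 genes in LEC-like ECs.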
